A study of Sus scrofa with 6 samples.

Results

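miR-9 was examined by small RNA sequencing of immature Sertoli cells of the pig in culture, the somatic cells that later nurse germ cells in the seminiferous tubule. The deposited table of 1645 entries holds 3 rows with its name, ssc-miR-9, ssc-miR-9-1 and ssc-miR-9-2 (ssc stands for Sus scrofa and is left off below). The rows were selected by name, and because their values are identical in all 6 libraries they were counted as 1 profile. The cells were of fetal testis, labelled 80 to 90 days gestation, with no genotype or strain named, and all were cultured for 6 h in medium with 10% fetal bovine serum and antibiotics before the treatment. The control group (3 libraries) was left untreated, and the AA2P group (3 libraries, VC-treated in the labels) received 250 µM of AA2P, the sesquimagnesium salt hydrate of L-ascorbic acid 2-phosphate, a stable form of vitamin C. How long it lasted is not given in the sources used here. Nothing in the labels says whether the libraries of a group came from separate animals or cultures, so any p-value rests on the spread among these libraries alone, and that spread may be technical.

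A mature microRNA (miRNA) is a short RNA that guides the Argonaute protein to partly complementary sites in messenger RNAs and lowers their output. miR-9 is one of the most conserved miRNAs of animals and is best known from the developing brain, where it acts with its targets REST and NR2E1 (TLX) in the step from neural progenitor to neuron. Outside the brain it is known as a miRNA that NF-κB induces downstream of Toll-like receptors and that represses NFKB1 in turn, and FOXO1, SIRT1 and CDH1 (E-cadherin) are among its other described targets.

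Mammals carry several miR-9 genes that yield the same mature miRNA. The RefSeq gene table for the pig assembly Sscrofa11.1 names 3 of them. MIR9-1 lies inside the long noncoding RNA gene LOC106510131, and its nearest protein-coding neighbours are MEF2D and RHBG. MIR9-2 lies between TMEM161B and MEF2C, and MIR9-3 between POLG and LOC106510141, with RHCG the next coding gene. Thus the nearest coding genes of MIR9-1 and MIR9-2 include 2 members of the MEF2 family of transcription factors, and MIR9-1 and MIR9-3 both lie near a gene of the Rh ammonia transporters. The build used for the deposited table is not given in the sources used here, and the table cannot show which of these genes the measured miRNA came from.

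The 3 rows limit what the level means. No source states whether a read that matches several copies was repeated in each row or shared out between the rows. At the depth derived below, identical rows of miR-218 fell on whole reads in every library. They stood at 6, 3 and 9 reads in control replicates 1, 2 and 3. In AA2P replicates 1, 2 and 3 they stood at 16, 7 and 15. Those of miR-199a-3p and miR-199b-3p also fell on whole reads. Both sets were among the low values from which the depth was derived, and all of these lay on its step. Nothing about repeated or shared reads is therefore read from them. The more abundant rows of miR-9, and of miR-129b and miR-129a-5p, did not fall on whole reads in most libraries. The depth is not known finely enough to resolve single reads at their levels, so nothing is read from that either. How shared reads were handled was not tested. TPM here is a count scaled to a total of 1000000 in each library. In what follows 1 row stands for miR-9, and its sum over the 3 rows is given where it matters.

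miR-9 was an abundant miRNA of these cells and stood higher in every AA2P library than in every control library. Its level was 2745.16, 2600.25 and 2617.17 TPM in control replicates 1, 2 and 3, and 4409.41, 3839.62 and 3785.27 TPM in AA2P replicates 1, 2 and 3. The control libraries lay close together, AA2P replicate 1 was the highest of the AA2P libraries, and the groups were separated by a gap of 1040.11 TPM. The means were 2654 ± 79.2 TPM in controls and 4011 ± 346 TPM with AA2P (SD, n = 3 per group), a ratio of 1.51, and single pairs of an AA2P and a control library gave ratios of 1.38 to 1.70. miR-9 was proposed for description with these values known, so its difference between the groups is given without a test. Of the 433 entries tested, those that reached 1 TPM in 3 or more libraries, 49.7% had groups that did not overlap, 40.4% with AA2P higher and 9.24% with AA2P lower, and nothing is read from that for miR-9. In a bulk library, a different number of cells that make a miRNA and a different amount of it per cell cannot be told apart.

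By rank, with rows of identical values counted once, miR-9 stood at 34, 35 and 35 among all entries in control replicates 1, 2 and 3 and at 23, 25 and 25 in AA2P replicates 1, 2 and 3. As a share of all TPM, 1 row took 0.265% ± 0.00792 in controls and 0.401% ± 0.0346 with AA2P. If the 3 rows were instead shares of one pool, their sum would be 0.796% ± 0.0238 and 1.20% ± 0.104 of the TPM, and miR-9 would rank 14 to 15 in controls and 10 to 14 with AA2P. The ratio between the groups is the same either way. The rank does depend on the choice, and the ranks of the groups overlap only when the rows are summed. The smallest step between low values put the depth at 25.8 to 36.0 Mreads (1000000 counted reads each) per library. A row of miR-9 thus stood for about 70907 to 138130 reads, with a counting error of 0.269 to 0.376%. Copies made in PCR are not told apart from independent molecules, so that figure is for counting alone. It lies well under the spread between libraries, with a coefficient of variation of 2.99% in controls and 8.62% with AA2P.

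**Figure D1:**
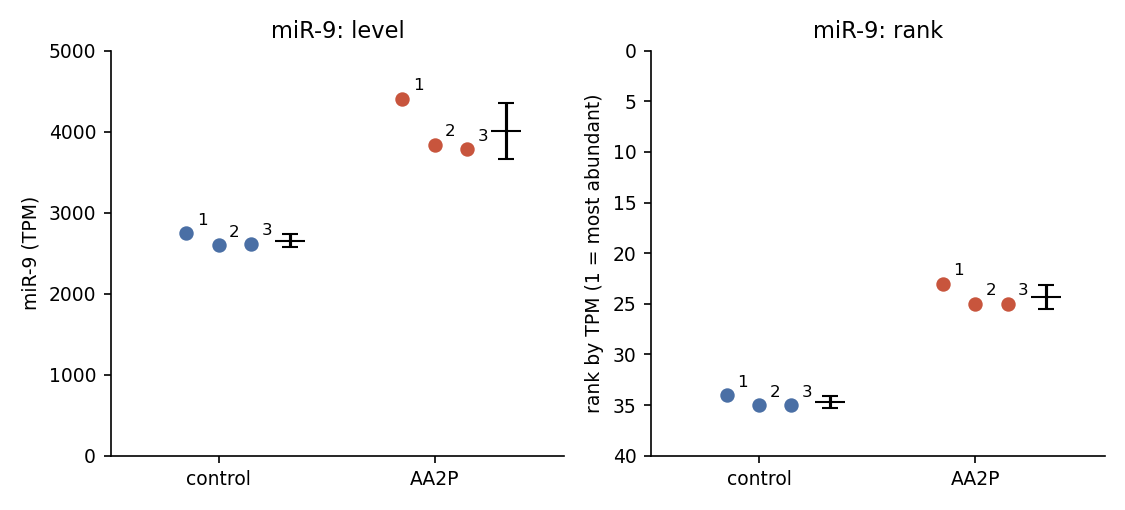
Level of miR-9 in TPM (left, axis from 0) and its rank by TPM with rows of identical values counted once (right, rank 1 at the top), one point per library with its replicate number; the bar beside each group is the mean ± SD of 3 libraries. The AA2P libraries lie at 3785.27 to 4409.41 TPM and ranks 23 to 25, the control libraries at 2600.25 to 2745.16 TPM and ranks 34 to 35.

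The size of the difference depended on the scaling of the libraries. In the deposited TPM the difference was 0.59 on the log2(TPM + 1) scale, where the median of all tested entries was itself 0.25. miR-9 thus lay 0.34 above the median entry. Scaling by trimmed means, by the median of ratios, or to totals that leave out miR-21-5p brought the median to between -0.02 and -0.01 and the difference of miR-9 to 0.30 in each case. With totals that omit the 10 most abundant miRNAs it was 0.40, and with quantile normalization, which fixes the values at each rank, it was 0.60. As ratios of means these 5 scalings gave 1.23 to 1.52, and in each of them the AA2P libraries all lay above the control libraries. The narrowest margin was that of the totals without miR-21-5p, where miR-9 took 0.564, 0.553 and 0.544% of the remaining TPM in control replicates 1, 2 and 3 and 0.763, 0.609 and 0.677% in AA2P replicates 1, 2 and 3. There the lowest AA2P library lay 1.08-fold above the highest control library. Leaving out any 1 library moved the difference only between 0.52 and 0.63, the lowest value being that without AA2P replicate 1.

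**Figure D2:**
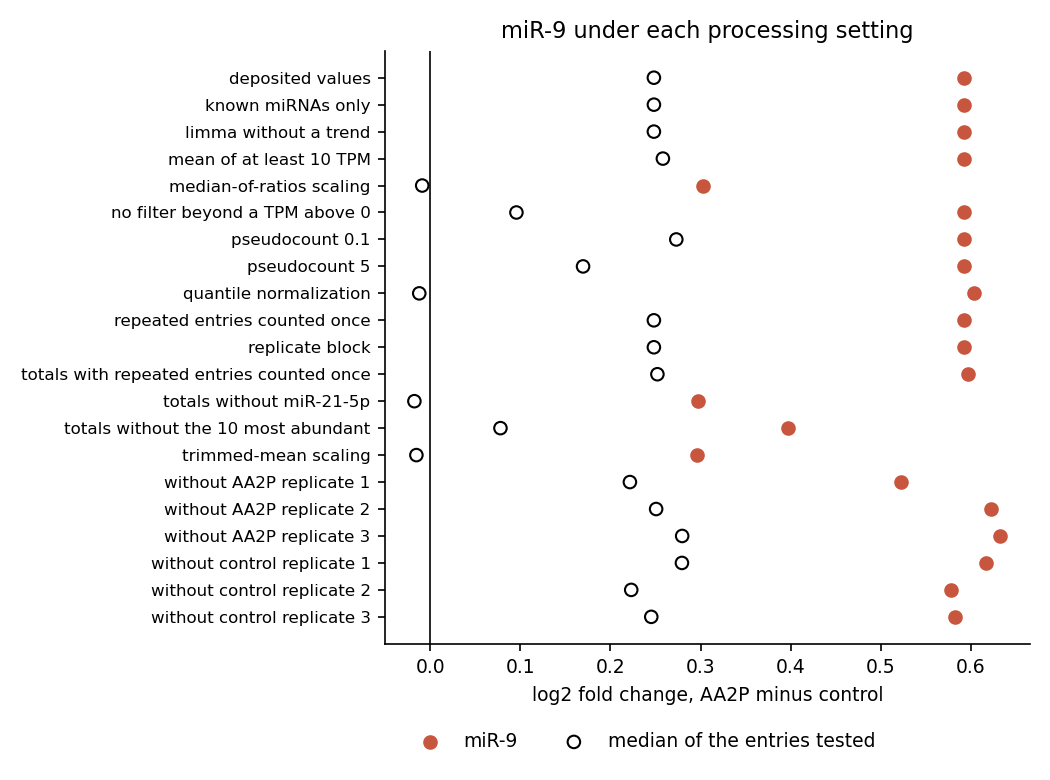
Log2 difference of miR-9 between the AA2P and control libraries under each processing setting (filled points) and the median of the entries tested under that setting (open points). The filled points lie right of 0 throughout, at 0.30 to 0.63, and 3 of the scalings lie at the low end, 0.30.

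Ratios between miRNAs of the same library are not altered by any scaling with 1 factor per library, and they set miR-9 against the most abundant miRNAs of these cells. miR-21-5p, the dominant miRNA here, exceeded a row of miR-9 by 187, 204 and 198 times in control replicates 1, 2 and 3 and by 95.7, 96.3 and 117 times in AA2P replicates 1, 2 and 3. The excess of miR-21-5p was thus smaller in every AA2P library, with means of 196 ± 8.65 and 103 ± 11.9 (SD, n = 3 per group). Relative to miR-92a, a product of the miR-17~92 cluster, the mean ratio of miR-9 was 1.80 times higher with AA2P. It was 1.46 times higher relative to miR-100, 1.29 times relative to let-7i-5p and 1.29 times relative to miR-10a-5p, a miRNA of the HOX clusters. For these 5 of the 10 most abundant miRNAs the 2 groups of ratios did not overlap. For the other 5 they did: the ratio was 1.30 times higher with AA2P relative to let-7a, 1.14 times relative to let-7f-5p, 1.13 times relative to let-7g and 1.10 times relative to miR-30d. Relative to miR-30a-5p it was 0.953 times its control value, with library pairs between 0.846 and 1.05. miR-9 therefore stood higher with AA2P against miR-21-5p and miR-92a in every library pair, but not against the let-7 members let-7a, let-7f-5p and let-7g or the miR-30 members.

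**Figure D3:**
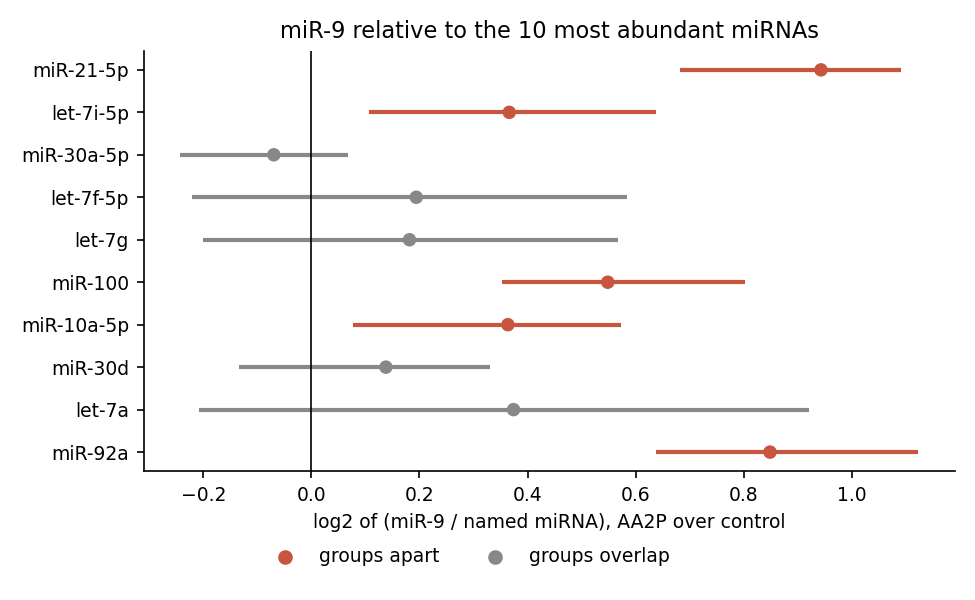
Ratio of miR-9 to each of the 10 most abundant miRNAs, AA2P over control on a log2 axis, as the ratio of group means (point) and the range over all pairs of an AA2P and a control library (line). The lines of miR-21-5p, miR-92a, miR-100, let-7i-5p and miR-10a-5p lie right of 0, and that of miR-30a-5p spans it with its point slightly left.

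Among the more abundant entries, miR-9 had a small spread in controls and a middling one with AA2P. With identical rows counted once, 61 entries had a mean of at least 1000 TPM, and miR-9 ranked 10 among them by log2 difference, above a median of 0.16. Those ahead of it were miR-184 (6.44-fold), miR-192 (2.39-fold), miR-99a-5p (2.15-fold), miR-30e-5p (1.90-fold), miR-450b-5p (1.78-fold), miR-200b (1.68-fold), miR-30c-5p (1.68-fold), miR-30a-5p (1.59-fold) and miR-7-5p (1.57-fold, as ratios of mean TPM). Over all 429 tested entries counted this way it ranked 90, and 79.0% of the entries had a smaller log2 difference. Its coefficient of variation in controls, 2.99%, was undercut by 6 of the 61 entries, whose median was 7.84%. With AA2P it was 8.62%, near the median of 9.43% of the same entries.

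The entries next to miR-9 in mean TPM over the 6 libraries were miR-183, miR-17-5p and miR-148b-3p above it and miR-222, miR-24-3p and miR-125b below it, with miR-9 at place 27. In the control libraries all 6 of these neighbours lay above miR-9, none with an overlapping range, at means from 3256 ± 271 TPM for miR-125b to 4732 ± 389 TPM for miR-222 (SD, n = 3 per group). In the AA2P libraries the order changed. miR-9 then overlapped in range with miR-183 (4015 ± 515 TPM), a sensory-organ miRNA, miR-17-5p (4156 ± 196 TPM), of the miR-17~92 cluster, and miR-148b-3p (4436 ± 40.5 TPM). Its mean differed from those of miR-183 and miR-17-5p by less than their spread, whereas miR-148b-3p lay above miR-9 in each of the 3 AA2P libraries. miR-9 lay above all 3 AA2P libraries of miR-24-3p (3031 ± 362 TPM), miR-125b (3123 ± 192 TPM) and miR-222 (1760 ± 248 TPM). All these places hold for 1 row of miR-9. Summed over its 3 rows, miR-9 would lie above all 6 neighbours in every library, at 7801 to 8235 TPM in controls. Of these neighbours miR-222, a repressor of the cell cycle inhibitor CDKN1B, fell (limma, adjusted p = 0.00162) and miR-148b-3p, a relative of the DNMT1 repressors miR-148a and miR-152, rose (limma, adjusted p = 0.0138), against 4.85% of all tested entries called lower and 19.9% called higher. The call of miR-148b-3p ended under 4 of 5 other scalings, without control replicate 1 (limma, adjusted p = 0.0569) and without control replicate 3 (limma, adjusted p = 0.0691). The other 4 did not pass, although miR-24-3p, miR-125b and miR-183 each passed as lower under 4 of 5 other scalings, all but quantile normalization.

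Over the 6 libraries, the known miRNAs with a mean of at least 10 TPM whose log2(TPM + 1) was most like that of miR-9 were miR-499-5p, miR-429, miR-32, miR-769-5p and miR-192. Pearson's r over the 6 libraries was 0.995, 0.994, 0.989, 0.988 and 0.988, in that order, where the median over the 200 other such miRNAs was 0.742 and 57 of them exceeded 0.9. These values are descriptions, since the 6 points share the split into 2 groups and the scaling of each library. After subtraction of the group means, r was 0.912, 0.907, 0.812, 0.828 and 0.785. In each of the 5, as in miR-9, replicate 1 was the highest library of both groups. The other libraries were not all in the order of miR-9 for miR-769-5p and miR-192. Within-group r as high was also found where r over the 6 libraries was negative, as for miR-24-3p (0.985 and -0.449) and miR-27a (0.931 and -0.706). miR-429, a member of the miR-200 family that represses ZEB1 and ZEB2, stood at 103.92, 94.99 and 97.39 TPM in control replicates 1, 2 and 3 and at 230.55, 206.46 and 183.38 TPM in AA2P replicates 1, 2 and 3. As for miR-9, AA2P replicate 1 was the highest of the AA2P libraries. miR-499-5p, which is encoded in a myosin gene, stood at 16.65, 15.16 and 16.48 TPM in control replicates 1, 2 and 3 and at 26.79, 23.74 and 23.09 TPM in AA2P replicates 1, 2 and 3. Its ratio of group means, 1.52, was close to that of miR-9, although the level of miR-9 was over 100 times higher in each library.

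miR-32, miR-769-5p and miR-192, a p53-induced miRNA, differed 2.16-fold, 1.36-fold and 2.39-fold between the groups. All 5 were called higher by limma (adjusted p = 0.0108 for miR-499-5p, 0.00222 for miR-429, 0.00362 for miR-32, 0.0114 for miR-769-5p and 0.00127 for miR-192), which the choice by likeness made probable. The call of miR-769-5p ended under 4 of 5 other scalings and without control replicate 3 (limma, adjusted p = 0.0527), and that of miR-499-5p under 2 of 5 scalings and with no filter beyond a TPM above 0. The least alike were miR-146b, miR-146a-5p and miR-222, with r of -0.992, -0.988 and -0.983. Their AA2P values all lay below their control values, and the lowest of them was in AA2P replicate 1, where miR-9 was highest.

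**Figure D4:**
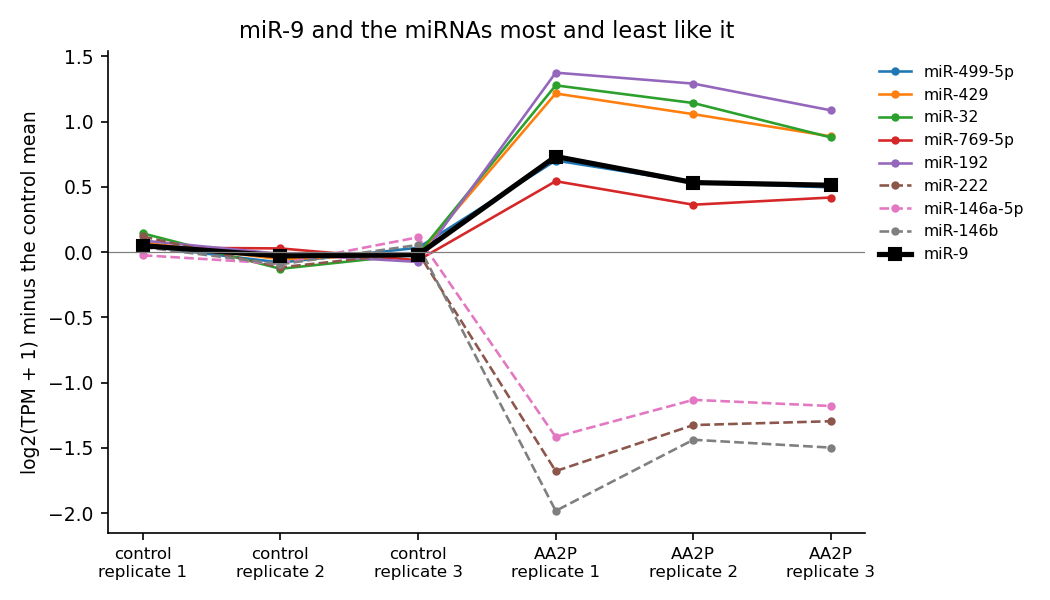
Log2(TPM + 1) of miR-9 (black) in each library minus its mean over the control libraries, with the 5 most alike miRNAs (solid lines) and the 3 least alike (dashed). The curves of miR-9 and miR-499-5p nearly coincide; miR-192, miR-32 and miR-429 lie above them in the AA2P libraries, and miR-146a-5p, miR-222 and miR-146b lie below 0 there.

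The lists that follow set miR-9 beside miRNAs that share its inducer, its tissue or a target with it; they were chosen with results of these data known, and miR-9 itself is left out of their counts. Of all tested entries limma called 24.7%, with 19.9% higher and 4.85% lower. Of the 41 tested members of all lists, 10 were called higher and 7 lower. Scaling turned that balance, to 5 higher and 14 lower with trimmed-mean scaling, where all tested entries gave 47 higher and 51 lower in place of 86 and 21.

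Most of the other tested miRNAs induced by NF-κB or Toll-like receptors were lower with AA2P, where miR-9 stood higher. Of 5 tested members 4 fell and none rose, against 4.85% and 19.9% of all tested entries. Their median log2 difference was -0.61, against 0.25 for all tested entries, and miR-187, at most 0.56 TPM, was not tested. miR-146a-5p, which restrains Toll-like receptor signalling, fell from 4262 ± 309 to 1804 ± 185 TPM (SD, n = 3 per group; limma, adjusted p = 0.00140). Its relative miR-146b fell from 165 ± 9.21 to 53.1 ± 10.5 TPM (limma, adjusted p = 0.00215). A row of miR-9 was thus below miR-146a-5p in every control library and above it in every AA2P library. The ratio of that row to miR-146a-5p was 0.625 ± 0.0489 in controls and 2.25 ± 0.445 with AA2P. Summed over its 3 rows, miR-9 would stand at 7801 to 8235 TPM in controls, and above miR-146a-5p in every library. miR-155-5p, an inflammatory miRNA of immune cells, fell from 578 ± 76.0 to 376 ± 32.5 TPM (limma, adjusted p = 0.0159), and miR-21-5p fell by 0.35 on the log2 scale (limma, adjusted p = 0.0254). The call of miR-155-5p ended without control replicate 2 or 3 (limma, adjusted p = 0.0606 and 0.0670). The call of miR-21-5p ended without any 1 control library or AA2P replicate 1 (limma, adjusted p = 0.0553 to 0.0886) and under quantile normalization. miR-132, at 2.36 ± 0.592 and 4.40 ± 0.866 TPM, was the member whose log2 difference, 0.69, had the sign of that of miR-9, and it did not pass (limma, adjusted p = 0.0577), although it did with known miRNAs alone and without the trend.

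Most other miRNAs enriched in the brain, the tissue for which miR-9 is best known, were at trace level or had no entry by name. miR-124a was among those with no entry, so its level is not known here. Of 20 other brain-enriched miRNAs 13 were matched by name, 8 of these stayed under 1 TPM in every library and 5 were tested, among them miR-129a-5p and miR-129b with identical values. miR-137 and miR-153, both neuronal, reached at most 0.04 and 0.11 TPM, and miR-138 at most 0.53 TPM. miR-128, which the brain shares with many tissues, was the most abundant at 1492 ± 166 and 1750 ± 182 TPM, followed by miR-129a-5p at 151 ± 6.91 and 180 ± 21.1 TPM and miR-149 at 68.5 ± 6.78 and 52.7 ± 6.36 TPM. miR-219a, a miRNA of oligodendrocytes, stood at 15.3 ± 1.76 and 18.9 ± 0.808 TPM. None of the 5 was called, against 24.7% of all tested entries, and with so few members nothing is read from that. Their median log2 difference of 0.24 was close to the 0.25 of all tested entries. By level, then, miR-9 stood above each of the 13 matched members in every library. miR-149 passed as lower under all 5 other scalings.

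REST, a repressor of neuronal genes, is both a target of miR-9 and a regulator with sites at miR-9 genes. Of 13 other miRNAs whose genes carry REST sites, 10 were matched and 7 were tested. Of these 1 rose and 2 fell, against 19.9% and 4.85% of all tested entries, and the median log2 difference was 0.31. miR-29a-3p, a collagen repressor, fell from 1639 ± 159 to 1224 ± 23.2 TPM (limma, adjusted p = 0.0183) and miR-29b from 24.1 ± 1.26 to 15.4 ± 3.16 TPM (limma, adjusted p = 0.0313). miR-330 rose from 26.8 ± 0.764 to 33.4 ± 1.70 TPM (limma, adjusted p = 0.0441). The sign of the difference varied within the list, and with so few calls nothing is read from their balance. miR-139-5p (1787 ± 82.8 and 1667 ± 84.8 TPM), miR-455-5p (258 ± 34.6 and 320 ± 8.82 TPM), miR-135 (21.6 ± 1.22 and 27.2 ± 3.25 TPM) and miR-132 did not pass, and miR-139-5p passed as lower under all 5 other scalings. The call of miR-330 ended under all 5 other scalings, with its sign reversed under quantile normalization, and without any 1 library (limma, adjusted p = 0.0762 to 0.136). That of miR-29a-3p ended without control replicate 1 or 3 or AA2P replicate 1 (limma, adjusted p = 0.0520 to 0.0740), and that of miR-29b without any 1 control library or AA2P replicate 1 (limma, adjusted p = 0.0722 to 0.1003). miR-455-5p passed as higher without control replicate 1 (limma, adjusted p = 0.0381).

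Of the miRNAs that share SIRT1, a NAD-dependent deacetylase, as a target with miR-9, 9 of 12 were tested. Of these 4 rose while none fell, against 19.9% and 4.85% of all tested entries. Their median log2 difference was 0.65, near the 0.59 of miR-9, against 0.25 for all tested entries. miR-181b was at 83.55, 68.35 and 82.75 TPM in control replicates 1, 2 and 3 and at 169.55, 185.75 and 149.18 TPM in AA2P replicates 1, 2 and 3 (limma, adjusted p = 0.00315). miR-181a of the same family rose from 76.0 ± 8.46 to 126 ± 5.86 TPM (limma, adjusted p = 0.00519). Both members of the pair were higher in every AA2P library than in every control library, but the highest value of miR-181b was in AA2P replicate 2 and not, as for miR-9, in AA2P replicate 1. miR-204, a miRNA of retinal pigment epithelium, was low throughout and rose from 0.440 ± 0.246 to 2.96 ± 0.746 TPM (limma, adjusted p = 0.0100). It reached 1 TPM in the AA2P libraries alone, and so was tested only through the group where it is high. Its call is therefore counted but not read further. miR-22-3p, which targets TET enzymes, rose from 352 ± 39.0 to 556 ± 103 TPM (limma, adjusted p = 0.0319). The call of miR-22-3p ended under all 5 other scalings and without any 1 library but AA2P replicate 3 (limma, adjusted p = 0.0687 to 0.1003), whereas those of miR-181a, miR-181b and miR-204 held in all alternatives in which they were tested. miR-34a (295 ± 33.8 and 384 ± 32.2 TPM), miR-135, miR-195 (18.8 ± 1.85 and 23.5 ± 4.32 TPM) and miR-132 did not pass, nor did miR-199b-5p. miR-34a passed as higher with known miRNAs alone and among entries with a mean of at least 10 TPM.

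Among the miRNAs that share the transcription factor FOXO1 or the adhesion protein CDH1 as a target with miR-9, none was called higher. Of all tested entries 19.9% were, and with so few members nothing is read from the difference. Of 7 tested miRNAs that target FOXO1 none was called, against 24.7% of all tested entries, and their median log2 difference was -0.10. The most abundant were miR-182 (6662 ± 413 and 6310 ± 1034 TPM), miR-27a (5697 ± 138 and 4871 ± 405 TPM), miR-183 and miR-139-5p. miR-135 and miR-96-5p (439 ± 59.0 and 500.1 ± 54.7 TPM) had a difference of the same sign as miR-9, 0.32 and 0.19 on the log2 scale, and the other 5 had the opposite sign. Both miR-182 and miR-27a exceeded a row of miR-9 in every library, though neither exceeded the sum of its 3 rows. The absence of calls rested on the scaling: miR-139-5p passed as lower under all 5 other scalings, miR-27a and miR-183 under 4, miR-486 under 3 and miR-182 under 1. miR-27a also passed as lower without AA2P replicate 1 (limma, adjusted p = 0.0332), and miR-486 with known miRNAs alone. Of the CDH1-targeting miRNAs, miR-23a fell from 2665 ± 80.7 to 2118 ± 105 TPM (limma, adjusted p = 0.0156) and miR-92a, at 13956 ± 1138 and 11717 ± 498 TPM, did not pass (limma, adjusted p = 0.0739), although it passed as lower under all 5 other scalings. miR-23a and a row of miR-9 had nearly the same level in controls, where the sum of the 3 rows was 7801 to 8235 TPM. The call of miR-23a ended without control replicate 2 or 3 (limma, adjusted p = 0.0558 and 0.0713).

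**Figure D5:**
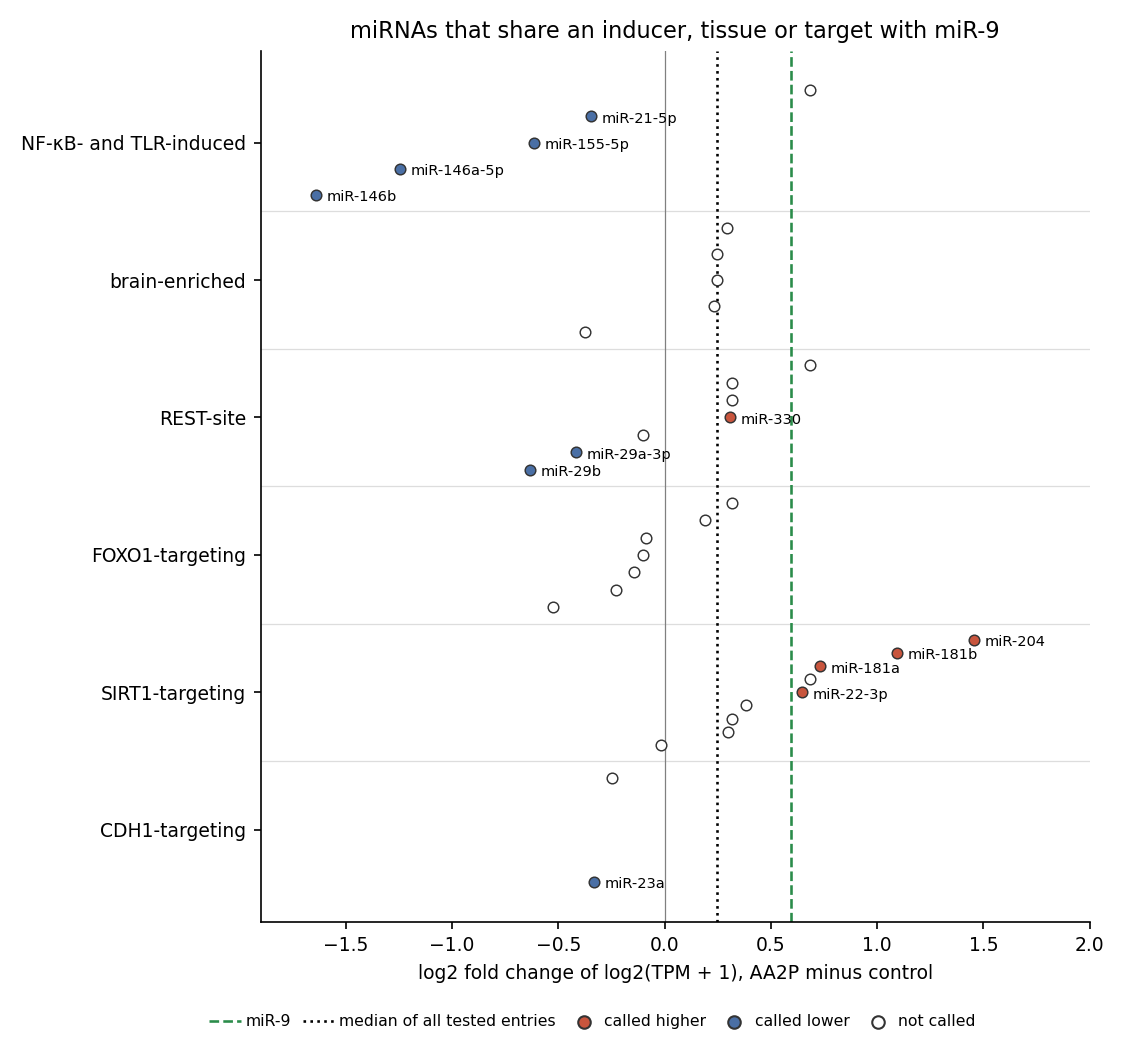
Log2 difference of each tested member of 6 lists between the AA2P and control libraries, with miR-9 as the dashed line at 0.59 and the median of all tested entries as the dotted line at 0.25. The called NF-κB-induced members lie left of 0, the called SIRT1-targeting members lie right of the dashed line, and none of the brain-enriched or FOXO1-targeting members was called.

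Markers of other cell types were set beside the level of miR-9, since the messenger RNAs that define Sertoli cells were not measured here and the cell label could not be checked. Both miRNAs of the neuroendocrine list rose, where 19.9% of all tested entries were called higher. miR-7-5p, an islet and pituitary miRNA, was at 8715, 9489 and 11188 TPM in control replicates 1, 2 and 3 and at 13638, 17465 and 15122 TPM in AA2P replicates 1, 2 and 3 (limma, adjusted p = 0.0156), and miR-375, an islet miRNA, rose from 7.28 ± 0.745 to 11.0 ± 0.412 TPM (limma, adjusted p = 0.0197). Among the AA2P libraries miR-7-5p was lowest in replicate 1, where miR-9 was highest. The call of miR-7-5p ended under 4 of 5 other scalings and without control replicate 2 (limma, adjusted p = 0.0579), and that of miR-375 under all 5 scalings and without control replicate 2 or 3 or AA2P replicate 1 or 3 (limma, adjusted p = 0.0608 to 0.0803).

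The summed level of 8 muscle and myoid miRNAs was 184 to 243 TPM in the control and 243 to 331 TPM in the AA2P libraries. Of 5 tested members miR-499-5p rose, and miR-1, the most abundant, stood at 153 ± 24.1 and 225 ± 41.4 TPM and did not pass (limma, adjusted p = 0.0746), although it passed as higher without AA2P replicate 3 (limma, adjusted p = 0.0496). The sum of 9 blood and endothelial miRNAs was 103 to 117 TPM in the control and 92.5 to 126 TPM in the AA2P libraries. Of 4 tested members miR-142-3p, a white blood cell miRNA, rose from 0.507 ± 0.0802 to 1.98 ± 0.627 TPM (limma, adjusted p = 0.0293). It reached 1 TPM in the AA2P libraries alone, and so was tested only through the group where it is high. Its call ended without any 1 library but AA2P replicate 2 (limma, adjusted p = 0.0718 to 0.0845) and under 2 of 5 scalings. The erythroid miRNAs miR-451 and miR-144 reached at most 1.11 and 0.06 TPM, and the myeloid miR-223 reached 5.40 TPM in AA2P replicate 1 and at most 0.06 TPM elsewhere. AA2P replicate 1, where miR-9 was highest, was also the library with the most miR-142-3p, 2.68 TPM, and without it the log2 difference of miR-9 was 0.52. Of 11 germ cell miRNAs 2 were matched, miR-371-5p at most 0.11 TPM and miR-34c, which rose from 178 ± 8.01 to 242 ± 36.3 TPM (limma, adjusted p = 0.0464), a call that ended under all 5 other scalings and without any 1 library but AA2P replicate 2 (limma, adjusted p = 0.0635 to 0.129). The level of miR-9 exceeded the summed muscle, blood and germ cell lists in every library. Of all tested entries 19.9% were called higher, and nothing is read from 1 such call in each of these lists. The part of these cell types in the difference of miR-9 was not tested.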

How the data were processed

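The authors deposited 1 table of TPM for 6 libraries with 1645 entries (358 known miRNAs, 1287 predicted) rounded to 2 decimals, and per the submitters' processing notes Bowtie was used, with no version. The genome build and miRBase release used, and how shared reads were handled, is not given in the sources used here. Columns were matched to samples by title. Depth came from the step between low values (tolerance 0.0051 TPM), on which all of these lay in each library. No count test was run: the deposited values are TPM and not counts. With the depth so found, the value of miR-9 did not fall on a whole read in most libraries. That depth is too coarse to resolve single reads at the level of miR-9. The 433 entries that reached 1 TPM in 3 or more libraries were compared, AA2P against control, by limma 3.58.1 in R 4.3.3 on log2(TPM + 1) with a mean-variance trend, two-sided, Benjamini-Hochberg adjusted, called under 0.05. On this scale fold changes of low entries are understated. Folds are ratios of mean TPM. The fit was tested on simulated data. The miRNA described and the lists were chosen with earlier results of these data known. Named were 3 neighbours in level on either side, the 5 most and 3 least alike miRNAs, and in each list the called members and up to 4 others by level. miRNAs with larger ratios, miRNAs at the trace levels named, and the 10 most abundant were named after their values were seen. The other arm of miR-9 and miRNAs that share its seed were not analysed here, and miR-7 was matched to miR-7-5p. Alternatives were other pseudocounts, filters, entry sets, scalings, model settings and leaving out each library.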

Additional observations from a re-analysis of the deposited data

How the results depend on the processing

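The log2 difference of miR-9 kept its sign in 20 alternatives and moved by less than its spread (0.129) in 16. It moved with trimmed-mean scaling (0.296), median-of-ratios scaling (0.302), totals without miR-21-5p (0.297) and totals without the 10 most abundant miRNAs (0.397); without 1 library it was 0.52 to 0.63. Set against the median of the tested entries it ranged from 0.30 to 0.62. The count of called entries, 107 (86 higher, 21 lower), was 57 with no filter beyond a TPM above 0 and 63 with the replicate block, and 62 to 98 without 1 library, the lowest without control replicate 3. The split of higher and lower calls was 47 and 51 with trimmed-mean scaling, 48 and 51 with median-of-ratios scaling, 45 and 42 with quantile normalization, 40 and 43 with totals without miR-21-5p, and 52 and 36 with totals without the 10 most abundant. Of 41 tested list members 17 were called (10 higher, 7 lower), with splits of 5 and 14 (trimmed-mean and median-of-ratios scaling), 5 and 11 (quantile normalization), 3 and 13 (without miR-21-5p) and 4 and 12 (without the 10 most abundant); 7 were called with no filter beyond a TPM above 0, 9 with the replicate block, and 7 to 15 without 1 library. With no filter, the calls of miR-142-3p, miR-148b-3p, miR-21-5p, miR-22-3p, miR-23a, miR-29a-3p, miR-29b, miR-330, miR-34c, miR-375 and miR-499-5p ended. With the replicate block the same calls ended except those of miR-22-3p and miR-29a-3p. Without the trend, those of miR-21-5p, miR-330 and miR-34c ended. miR-330 reversed to -0.054 under quantile normalization; the cause was not tested. The deviations from the group means of the control and AA2P libraries of 1 number had correlations of 0.29, 0.06 and 0.18, and 5 of 6 libraries correlated best with their own number, so the pairing is only a hint from the data. The block left the difference of miR-9 at 0.593. Totals with repeated entries counted once, added after seeing the data, gave 0.597. The planned comparison of the other arm of miR-9 was not run. A count of 0 allows up to 3 reads, in these libraries 0.0834 to 0.116 TPM, which limits what can be said of list members at 0.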
